A study of Mus musculus with 16 samples.

Results

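The genes described here make, sense, move and store cholesterol and fatty acids. They were chosen by name from a list of 40 gene symbols, and 37 of the 40 had a row in each of the tables, out of 11171 genes in conventional T cells and 11067 in regulatory T cells (10774 in both). Scd1, Scd2 and Fads2 are not analysed here. Mice received vehicle or 50 mg/kg of venetoclax (a drug that blocks BCL-2, which keeps lymphocytes alive) for 14 days, and the study sequenced RNA of CD4+ T cells sorted from spleen and lymph node. All animals carried the FOXP3-IRES-GFP reporter (strain B6.Cg-Foxp3tm2Tch/J, genotype WT), which marks FOXP3+ cells, and no source used here gives their age. There were 4 groups of 4 libraries: conventional cells (Tcon, FOXP3-) of vehicle mice, Tcon of venetoclax mice, regulatory cells (Treg, FOXP3+) of vehicle mice and Treg of venetoclax mice. The labels call the replicates biological, and Tcon and Treg libraries carry the same 8 codes, but no label says that a shared code is a shared animal.

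Cells build cholesterol from acetyl-CoA through mevalonate, isoprenoid units, squalene and a long series of changes to the sterol ring, and they build fatty acids from the same acetyl-CoA with acetyl-CoA carboxylase and fatty acid synthase, followed by elongases and desaturases. The SREBP transcription factors, held in the endoplasmic reticulum by INSIG proteins when sterols are plentiful, turn on most enzymes of both pathways, while LXR receptors respond to oxysterols and turn on export pumps and the ubiquitin ligase MYLIP. Dividing T cells use both pathways to make membrane.

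Values are normalized read counts, that is, reads divided by 1 size factor per library. A change is the log2 of venetoclax over vehicle, computed after adding 1 to each value. A gene is said to have risen or fallen when its limma p, after Benjamini-Hochberg adjustment across the whole table, was under 0.05. The sorted cells carried their defining markers: Foxp3, the Treg transcription factor, stood at 19839.6 ± 1443 (SD, n = 4) in vehicle Treg and at 688 ± 50.9 in vehicle Tcon. The libraries held similar numbers of recovered reads, 22982210 to 24960570 in Tcon and 21335006 to 25027038 in Treg. Some features of the libraries moved with the treatment. Of 22 cell cycle genes 19 rose in Tcon (median log2 change 1.50, summed level 17046 to 18418 in vehicle and 22344 to 26049.6 in venetoclax). In Treg 2 of them rose and 1 fell (median 0.24, sum 20379 to 24792 against 20760.2 to 27429.9). Of 12 immediate early genes, which respond to handling and to receptor signals, 3 fell in Tcon (summed level 40589 to 125145 in vehicle and 19438 to 48902 in venetoclax, median log2 change -1.09), and 9 fell there with the replicate number as a block. In Treg 8 fell and 1 rose (60678 to 130919 and 24429.8 to 55096, median -0.93). The Y-linked Ddx3y and Kdm5d were above 1 normalized count in 1 of 4 vehicle codes (replicate 2) and in 3 of 4 venetoclax codes, at lower levels in replicates 1 and 3 than in replicate 2. On the second principal component of Tcon, vehicle replicate 3 (21.8) and venetoclax replicate 3 (19.0) stood apart from the other libraries (-15.2 to -1.05). The part of these features in the changes below was not tested, except where a value is given with Y-linked level as covariate or without replicate 3. Of 7 CD4 T cell markers, Il2ra rose by 0.98 and Cd5 fell by 0.39 in Tcon (limma adjusted p = 0.00589 and 0.00769), and none passed in Treg, where 2 had an unadjusted p under 0.05. No marker of B, CD8, NK, myeloid or erythroid cells on the lists used passed the limma test in either subset without a block, and between 0 and 4 per list had an unadjusted p under 0.05. In the blocked Tcon fit, Eomes of the CD8 and NK list fell by 0.54 (limma adjusted p = 0.0159), and the myeloid marker Itgam and the erythroid marker Hbb-bs rose by 0.39 and 1.37 (0.0283 and 0.0391). In the blocked Treg fit, which 22.3% of all genes passed, 3 of 4 erythroid markers rose (median change of the 4, 1.43). There 2 CD8 and NK markers and 1 myeloid marker fell. The summed level of the 4 erythroid markers was 33.1 to 554 in vehicle and 20.3 to 1343 in venetoclax Treg. The summed level of 9 myeloid markers was 291 to 408 in vehicle and 274 to 504 in venetoclax Tcon. That of 5 CD8 and NK markers was 704 to 867 in vehicle and 605 to 697 in venetoclax Treg, without overlap. None of the markers measured was at 0 in every library. In bulk RNA of sorted cells, a change in the share of cells that hold a transcript and a change in its amount per cell cannot be told apart.

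The promoter sequences of 5 genes on which the results turn are shown here with 3 short motifs that were searched in them. Hmgcs1 and Idi1 are enzymes of the mevalonate branch whose changes differed between the subsets in a blocked test, and Insig1, Mylip and Elovl5 changed in both subsets. Each run holds the 250 bases before the gene's RefSeq start (GRCm38.p6), 5′ to 3′ on the gene's own strand. Capitals mark a match on either strand to the sterol regulatory element TCACNCCAC, the E-box CACGTG or the CCAAT box (read as ATTGG from the other strand).
Hmgcs1 (chr13:119690101-119690350, + strand): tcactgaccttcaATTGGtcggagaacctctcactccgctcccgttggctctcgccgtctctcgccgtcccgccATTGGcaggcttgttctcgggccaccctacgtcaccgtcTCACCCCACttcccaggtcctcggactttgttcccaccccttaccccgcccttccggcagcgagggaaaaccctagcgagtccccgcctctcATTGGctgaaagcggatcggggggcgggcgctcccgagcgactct
Idi1 (chr13:8885356-8885605, + strand): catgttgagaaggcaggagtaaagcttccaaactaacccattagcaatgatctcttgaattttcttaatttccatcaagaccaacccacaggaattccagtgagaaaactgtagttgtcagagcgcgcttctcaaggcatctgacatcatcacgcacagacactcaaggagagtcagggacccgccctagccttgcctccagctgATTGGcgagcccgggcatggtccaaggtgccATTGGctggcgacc
Insig1 (chr5:28071162-28071411, + strand): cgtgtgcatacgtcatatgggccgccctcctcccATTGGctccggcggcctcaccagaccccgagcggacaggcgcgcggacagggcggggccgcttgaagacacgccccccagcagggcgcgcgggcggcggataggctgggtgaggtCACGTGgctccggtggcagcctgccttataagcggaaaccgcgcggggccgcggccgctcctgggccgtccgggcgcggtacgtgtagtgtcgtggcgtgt
Mylip (chr13:45389492-45389741, + strand): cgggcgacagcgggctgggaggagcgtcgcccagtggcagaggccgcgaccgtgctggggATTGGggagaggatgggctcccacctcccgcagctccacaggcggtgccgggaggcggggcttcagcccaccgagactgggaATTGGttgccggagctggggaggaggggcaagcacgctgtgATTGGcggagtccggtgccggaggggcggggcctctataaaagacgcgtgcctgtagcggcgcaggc
Elovl5 (chr9:77917115-77917364, + strand): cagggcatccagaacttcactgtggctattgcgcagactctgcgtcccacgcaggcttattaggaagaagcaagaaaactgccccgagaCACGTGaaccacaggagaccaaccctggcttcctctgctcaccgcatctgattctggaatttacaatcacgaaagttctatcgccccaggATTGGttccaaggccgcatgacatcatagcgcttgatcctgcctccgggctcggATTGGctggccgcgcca
RefSeq promoters were at hand for 31 of the 37 genes. The sterol regulatory element was in 1 of the 31, Hmgcs1, where it begins at base -137 from the start, and in 1.18% of the 9237 genes of the tables with a promoter. The E-box was in 7 (22.6%, against 9.88% of genes): Abca1, Dhcr7, Elovl5, Hsd17b7, Insig1, Sc5d and Scap. The CCAAT box was in 24 (77.4%, against 40.6% of genes), among them all 5 printed above. Insig1 and Elovl5, which moved in opposite directions, both hold an E-box. A match is a string of letters, and no binding was measured.

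In vehicle mice, levels per length of exon (RPKM, reads scaled to exon length and library size, with exon lengths from the basic GENCODE M21 annotation) spanned a wide range over the 37 genes. In Tcon they ran from 2.70 ± 0.54 (SD, n = 4) for Hsd17b7, a late sterol enzyme, to 65.1 ± 6.16 for Acly, which makes cytosolic acetyl-CoA from citrate. Acly was followed by Elovl5, an elongase of polyunsaturated fatty acids (62.5 ± 2.26), and Srebf2, the SREBP gene of the cholesterol branch (54.7 ± 7.46). Nr1h2, the LXRβ gene, came next (46.1 ± 4.54). Among these 4 genes the ranges of mean ± SD of neighbours overlapped in Tcon. Treg had the same genes in the first 4 places, with Elovl5 first (73.4 ± 2.49) and Acly next (66.0 ± 2.17), and there these ranges did not overlap. Plin2, which encodes perilipin 2, a coat protein of lipid droplets, was near the bottom in Tcon (4.15 ± 0.70) and at 7.03 ± 0.86 in Treg.

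Vehicle levels of the subsets were set side by side in RPM (reads scaled to the library total), without a test, because the tables were normalized separately. Of the 37 genes, 8 had every vehicle Treg library above every vehicle Tcon library and 2 had every one below, where 24.5% and 12% of the 10774 shared genes did. Plin2 stood at 13.3 ± 1.62 (SD, n = 4) in Treg and 7.83 ± 1.31 in Tcon, and Ebp, a sterol isomerase, at 46.0 ± 2.12 and 32.5 ± 1.06. The others above were Mvd, Fdft1, Nsdhl, Stard4, Elovl1 and Elovl5. The 2 genes below were Acss2, which makes acetyl-CoA from acetate (46.3 ± 5.77 in Treg, 97.4 ± 9.01 in Tcon), and Mylip, the LXR-induced ligase that marks lipoprotein receptors for breakdown (61.9 ± 5.06 and 99.7 ± 12.8).

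After venetoclax, 6 of the 37 genes passed the test in Tcon, 4 higher and 2 lower, and 13 passed in Treg, 5 higher and 8 lower. Over all genes 6.91% passed in Tcon (3.92% higher, 2.99% lower) and 19.6% in Treg (10.7% higher, 8.81% lower). The median change of the 37 genes was 0.20 in Tcon and 0.03 in Treg, and the median of all genes was 0.00 in each. In Tcon 28 of the 37 changes were positive (50.5% of all genes), and in Treg 21 (51.3% of all genes). Of the 6 genes that passed in Tcon, 5 (83.3%) also passed in Treg, which is 38.5% of the Treg calls. The same shares over all genes are not given here, so this overlap cannot be called particular to the 37 genes. Plin2, Elovl1 and Elovl5 rose in both subsets, and Insig1 and Mylip fell in both. Same-numbered vehicle and venetoclax libraries of Tcon deviated together, but some pairs of unlike number did so more than the pair of replicate 1. No label pairs vehicle with venetoclax libraries, so a block by replicate number rests on these data. With the replicate number as a block, 15 genes passed in Tcon, 13 higher and 2 lower, where 16.8% of all genes did (8.92% higher, 7.9% lower). Without replicate 3 of both treatments 10 of the 37 genes passed in Tcon, where 12.9% of all genes did, and 7 in Treg, where 9.29% did. With upper quartile scaling in place of the deposited one, the Treg genes that passed were split into 969 higher and 1348 lower, against 1189 and 975 with the deposited scaling, and the 37 genes into 5 and 10. The libraries of the treatments did not overlap for 11 genes in Tcon (16.3% of all genes) and 13 in Treg (22.7% of all genes). The authors' deposited table gave an adjusted p under 0.05 to 11 of the genes in Tcon (11.3% of all genes) and to 14 in Treg (20.5%).

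**Figure D1:**
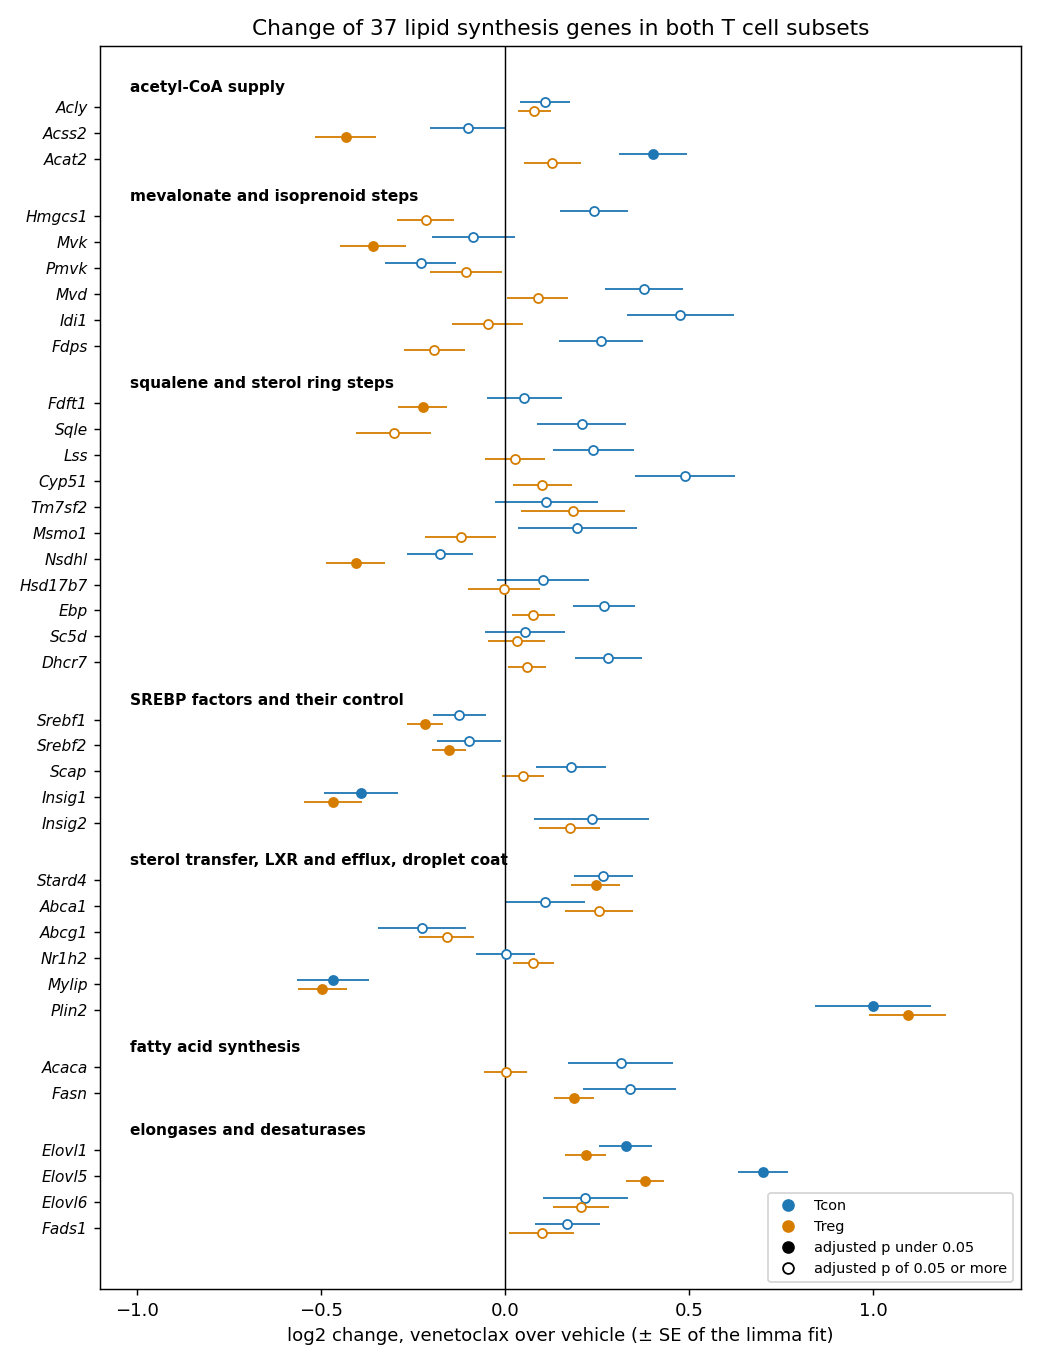
Log2 change of each of the 37 genes, venetoclax over vehicle, with the standard error of the limma fit as bars, for Tcon (blue) and Treg (orange), ordered by role; filled points have an adjusted p under 0.05. Plin2 lies at 1.00 in Tcon and 1.09 in Treg, Insig1 and Mylip lie below 0 in both, and 15 of the 17 enzymes from mevalonate to sterol have the Treg point left of the Tcon point.

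Of the 3 genes of acetyl-CoA supply, Acat2 rose in Tcon (3.92% of all genes rose) and Acss2 fell in Treg (8.81% of all genes fell). Acly, the citrate enzyme, was at 7103 ± 475 (SD, n = 4) in vehicle and 7642 ± 116 in venetoclax Tcon, and its change of 0.11 did not pass (limma adjusted p = 0.389). Acat2, the cytosolic thiolase that joins acetyl-CoA units, read 711, 771, 702 and 664 in vehicle Tcon replicates 1 to 4 and 884, 921, 1111 and 863 in venetoclax Tcon. All 4 venetoclax libraries lay above all 4 vehicle libraries. Acat2 rose by 0.40 in Tcon (SE 0.09, limma adjusted p = 0.0272), and the call was lost without vehicle replicate 1 or 4 or venetoclax replicate 1 or 2 (0.0640 to 0.0722) and with Y-linked level as covariate (0.131). A near copy, Acat3, lies beside it and has its own row, so reads could be split between them. In Treg its change of 0.13 did not pass (limma adjusted p = 0.267).

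Acss2, the acetate enzyme, read 1097, 940.4, 1299.8 and 1061 in vehicle Treg and 825, 802, 838 and 772 in venetoclax Treg. The venetoclax libraries were all below the vehicle libraries and close to each other. Acss2 fell by 0.43 in Treg (SE 0.08, 1.35-fold lower, limma adjusted p = 0.00355), a call kept whichever library was left out. In Tcon its libraries overlapped, at 2316 ± 306 in vehicle and 2152 ± 216 in venetoclax (SD, n = 4), with a change of -0.10 (limma adjusted p = 0.625).

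None of the 17 enzymes from mevalonate to sterol passed the test in Tcon by limma without a block. An unadjusted p under 0.05 was found for 8 of the 17 and for 2528 of all 11171 genes. Positive changes numbered 14 of the 17 (50.5% of all genes), and the median change was 0.21. The authors' deposited adjusted p in Tcon was under 0.05 for Mvd, Idi1, Cyp51 and Ebp (0.0218, 0.0305, 0.0148 and 0.0449). With the replicate block, which was chosen from these same data, 8.92% of all genes rose in Tcon. Among the 17 enzymes 6 rose in that fit: Mvd, Idi1, Fdps, Cyp51, Ebp and Dhcr7. In Treg 3 of the 17 fell and none rose, where 8.81% of all genes fell and 10.7% rose. Of the 17 changes 7 were positive (51.3% of all genes), and the median was -0.05. With the replicate block in Treg 5 of the 17 fell and none rose, where 22.3% of all genes passed.

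Idi1, which interconverts the isoprenoid units, read 1063, 1123, 1336 and 913 in vehicle Tcon and 1235, 1529, 1966 and 1469 in venetoclax Tcon. Replicate 3 was the highest of each group and the groups overlapped, yet within every replicate number the venetoclax library was the higher. Its change was 0.48 (SE 0.15, limma adjusted p = 0.0782, and 0.00165 with the replicate block). Cyp51, the sterol demethylase, read 1098, 1142, 1337 and 961 in vehicle and 1348, 1558, 2044 and 1456 in venetoclax Tcon. It had the same order of replicates as Idi1, with the lowest venetoclax library just above the highest vehicle library. The change of Cyp51 was 0.49 (SE 0.13, limma adjusted p = 0.0561, and 6.97e-04 with the block). Both kept their blocked call whichever replicate number was left out.

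Mvd, which turns mevalonate diphosphate into the isoprenoid unit, was at 534 ± 37.4 (SD, n = 4) in vehicle and 698 ± 99.0 in venetoclax Tcon, a change of 0.38 (limma adjusted p = 0.0614, and 0.0208 with the block). Fdps, which joins the units into farnesyl diphosphate, went from 1035 ± 81.6 to 1249.8 ± 208 (limma adjusted p = 0.209, and 0.0288 with the block). Fdps shares 77.4% of its exon bases with the readthrough gene Gm43738 on the same strand, so its count depends on how the authors assigned such reads. Ebp changed by 0.27 and Dhcr7, the last reductase of the pathway, by 0.28 (limma adjusted p = 0.0838 and 0.0970, and 0.0237 and 0.0240 with the block). Each of these 4 genes lost its blocked call when replicate 2 or 3 of both treatments was left out (0.0534 to 0.147), Ebp and Dhcr7 also without replicate 1. Hmgcs1, which makes the substrate of the mevalonate step, read 1882, 1960.2, 1886 and 1588 in vehicle and 1869.7, 2157, 2374 and 2258 in venetoclax Tcon. Only venetoclax replicate 1 lay within the vehicle range, and the change of 0.24 did not pass (limma adjusted p = 0.150, and 0.0556 with the block). Sqle, the first oxygen-using step, was at 656 ± 64.2 and 762 ± 125, a change of 0.21 that did not pass either (limma adjusted p = 0.352). The other enzymes of the branch lay between Pmvk, the second kinase of the mevalonate branch, at -0.23 and Lss, which closes the sterol rings, at 0.24 (limma adjusted p = 0.191 and 0.232). Transcripts on the opposite strand overlap 557 of 3482 exon bases of Hmgcs1 and 323 of 3027 of Idi1, and the sources used here do not say whether reads were counted by strand.

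In Treg the 3 enzymes that fell without a block were Mvk, Fdft1 and Nsdhl. Mvk, mevalonate kinase, read 349, 329, 343 and 340.1 in vehicle and 236, 276, 299 and 253 in venetoclax Treg. The vehicle libraries lay close together and all venetoclax libraries were below them. Mvk fell by 0.36 (SE 0.09, limma adjusted p = 0.0136). Nsdhl, a sterol dehydrogenase, read 545, 543, 590.0 and 596 in vehicle and 404, 413, 409 and 494 in venetoclax Treg. Venetoclax replicate 4 stood above the other 3 of its group and still below every vehicle library. The fall of Nsdhl was 0.41 on the log2 scale (a change of -0.41, SE 0.08, limma adjusted p = 0.00415). Mvk and Nsdhl passed whichever library was left out, but not without venetoclax replicates 1 and 3 together (0.0640 and 0.0789).

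Fdft1, squalene synthase, read 895, 921, 993 and 974 in vehicle and 727, 827, 863 and 825 in venetoclax Treg. The groups did not overlap. Fdft1 fell by 0.22 (SE 0.07, limma adjusted p = 0.0305), and the call was lost without vehicle replicate 3 or 4 or venetoclax replicate 1 or 4 (0.0547 to 0.0938) and with Y-linked level as covariate (0.0861). Fdft1 shares 20.9% of its exon bases with Ctsb on the opposite strand, and Ctsb rose in Treg by 0.19 (limma adjusted p = 0.0403). Sqle, at 724 ± 89.6 and 587 ± 76.5 (SD, n = 4), missed the threshold with a change of -0.30 (limma adjusted p = 0.0515). Hmgcs1, at 1695 ± 169 and 1458 ± 133, missed it with a change of -0.22 (limma adjusted p = 0.0664). Both passed with the replicate number as a block in Treg (limma adjusted p = 0.0114 and 0.0235), a fit that 22.3% of all genes passed. The authors' deposited adjusted p in Treg was 0.0373 for Sqle and 0.0570 for Hmgcs1. Changes of the other enzymes in Treg lay between -0.19 for Fdps and 0.18 for Tm7sf2, a sterol reductase (limma adjusted p = 0.126 and 0.392).

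As a description of the 17 enzymes together, the mean of their log2 levels was set against the vehicle mean of the subset in each library. In Tcon the vehicle libraries lay between -0.12 and 0.06, and the venetoclax libraries at 0.01, 0.21, 0.35 and 0.10 (replicates 1 to 4). In Treg the vehicle libraries lay between -0.08 and 0.10 and the venetoclax libraries at -0.23, -0.09, 0.06 and -0.07. In both subsets venetoclax replicate 1 was the lowest and replicate 3 the highest of the venetoclax libraries, and the treatments overlapped. The same mean over 6 genes of fatty acid synthesis, elongation and desaturation separated the treatments in both subsets. Gene by gene, Elovl1 and Elovl5 separated in both subsets, while Acaca, Fasn, Elovl6 and Fads1 overlapped in both. The mean of the 6 therefore does not show a shift of each gene. In Tcon this mean was -0.19 to 0.11 in vehicle and 0.28 to 0.40 in venetoclax. In Treg it was -0.02 to 0.01 in vehicle and 0.16 to 0.20 in venetoclax.

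**Figure D2:**
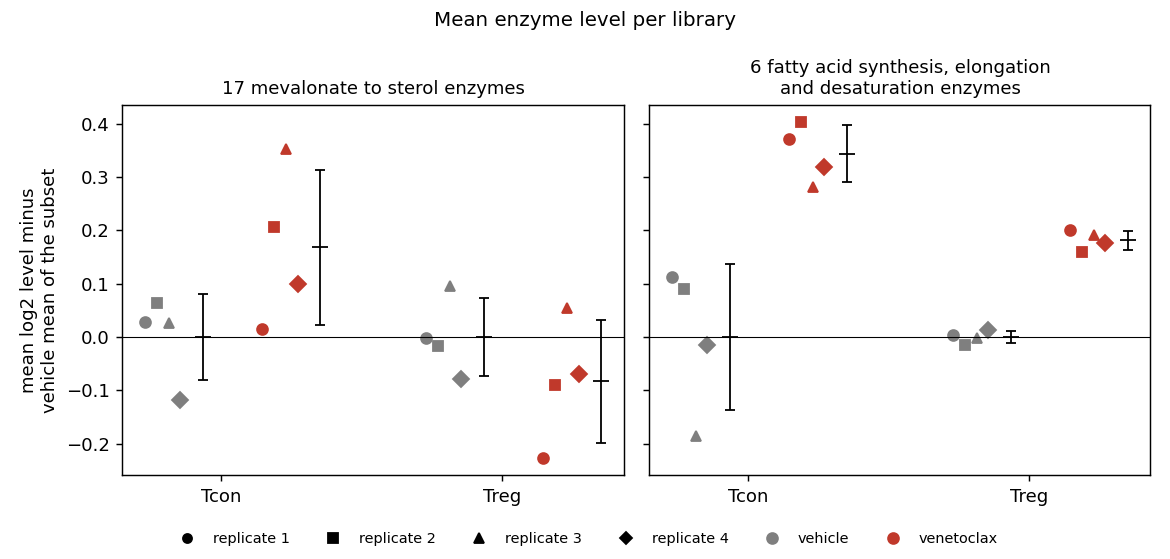
Mean log2 level per library, minus the vehicle mean of the subset, of the 17 enzymes from mevalonate to sterol (left) and of Acaca, Fasn, Elovl1, Elovl5, Elovl6 and Fads1 (right), with vehicle in grey, venetoclax in red, symbols for replicate numbers and bars for mean ± SD (n = 4). The sterol enzymes overlap between treatments in both subsets, while on the right the venetoclax libraries (0.28 to 0.40 in Tcon, 0.16 to 0.20 in Treg) lie above all vehicle libraries. Taken singly, Elovl1 and Elovl5 separate in both subsets and Acaca, Fasn, Elovl6 and Fads1 overlap in both.

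Of the 5 genes of the SREBP system, 1 fell in Tcon and 3 fell in Treg, and none rose. The shares of all genes that fell were 2.99% and 8.81%. Insig1, the sterol-sensing anchor that holds SREBP back and is itself an SREBP target, read 1230.2, 1457, 1265 and 1395 in vehicle and 885, 1122, 1153 and 935 in venetoclax Tcon. All venetoclax libraries lay below all vehicle libraries. Insig1 fell by 0.39 in Tcon (SE 0.10, 1.31-fold lower, limma adjusted p = 0.0429). That call was lost without vehicle replicate 1, 2 or 4 or venetoclax replicate 1, 2 or 4 (0.0598 to 0.139), while the blocked fit gave 0.00510. In Treg Insig1 read 1257, 1239, 1462 and 1434 in vehicle and 882, 905, 1089 and 1025 in venetoclax. Again no venetoclax library reached the vehicle range. Insig1 fell by 0.47 in Treg (SE 0.08, 1.38-fold lower, limma adjusted p = 0.00167) and kept the call whichever library was left out. Insig2, a related anchor, had positive changes of 0.23 in Tcon and 0.18 in Treg that did not pass (limma adjusted p = 0.424 and 0.153).

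Srebf1, the SREBP gene of the fatty acid branch, read 2989, 2985, 2951 and 2663 in vehicle and 2527, 2452, 2450.3 and 2521 in venetoclax Treg. Vehicle replicate 4 was the lowest of its group and still above the venetoclax libraries. Srebf1 fell by 0.22 in Treg (SE 0.05, limma adjusted p = 0.00871, and 0.0621 without replicate 3 of both treatments). Its Tcon libraries overlapped (2699.5 ± 219.7 and 2471 ± 81.8, SD, n = 4, change -0.12, limma adjusted p = 0.348). Srebf1 shares 2.54% of its exon bases with Rai1 on the opposite strand, and Rai1 fell by 0.23 in Treg (limma adjusted p = 0.00540). Srebf2 read 6843, 7199, 7282 and 6753 in vehicle and 6440.4, 6373, 6402 and 6043 in venetoclax Treg. The groups did not overlap, but lay close. Srebf2 fell by 0.15 in Treg (SE 0.05, limma adjusted p = 0.0337), the smallest of the 13 changes that passed there, and lost the call in 7 of 8 fits that left out 1 library (all but vehicle replicate 4). In Tcon its change was -0.10 (limma adjusted p = 0.569). Scap, the escort of SREBP, changed by 0.18 in Tcon and 0.05 in Treg and passed in neither (limma adjusted p = 0.305 and 0.584).

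Of the 6 genes of sterol transfer, export and storage, 1 rose and 1 fell in Tcon, and 2 rose and 1 fell in Treg. The shares of all genes that passed were 6.91% and 19.6%. Plin2 had the largest change of all 37 genes in both subsets. Plin2, the lipid droplet coat gene, read 193, 201, 148 and 198 in vehicle and 489.6, 322, 367 and 316 in venetoclax Tcon. In Treg it read 289, 331, 280.4 and 360.1 in vehicle and 767, 693, 673 and 563 in venetoclax. Venetoclax replicate 1 was the highest of its group in both subsets, and every venetoclax library lay well above every vehicle library. Plin2 rose 2.00-fold in Tcon (log2 1.00, SE 0.16, limma adjusted p = 0.00474) and 2.13-fold in Treg (log2 1.09, SE 0.10, limma adjusted p = 7.93e-05). It passed in both subsets whichever library was left out, and without venetoclax replicates 1 and 3 together the Tcon change was 0.79 (limma adjusted p = 0.0687).

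Mylip, the LXR-induced ligase, read 2739.7, 2008, 2321 and 2382 in vehicle and 1651, 1581, 1665 and 1912 in venetoclax Tcon. In Treg it read 1599, 1395, 1547 and 1342 in vehicle and 1128, 991, 1038 and 1006 in venetoclax. In each subset the venetoclax libraries lay below all vehicle libraries. Mylip fell by 0.47 in Tcon (SE 0.10, 1.38-fold lower, limma adjusted p = 0.0178) and by 0.50 in Treg (SE 0.07, 1.41-fold lower, limma adjusted p = 4.41e-04). The Tcon call was lost without venetoclax replicate 1 or 2 (0.0684 and 0.0623) and with Y-linked level as covariate (0.0612), and the Treg call was kept whichever library was left out. The pump genes Abca1 and Abcg1 and the receptor gene Nr1h2 did not pass without a block. Abca1, the main cholesterol pump, changed by 0.11 in Tcon and 0.25 in Treg (limma adjusted p = 0.623 and 0.0711). Abcg1, a second pump, changed by -0.23 and -0.16 (0.296 and 0.153). With the replicate block both passed in Treg, in opposite directions (limma adjusted p = 0.00559 and 0.0388), and neither passed in Tcon (0.374 and 0.0612). Nr1h2, the receptor gene itself, changed by 0.00 and 0.08 (limma adjusted p = 0.995 and 0.354).

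Stard4, a carrier that moves cholesterol between membranes, read 673, 679, 757 and 714 in vehicle and 849, 765, 879 and 855 in venetoclax Treg. The groups did not overlap. Stard4 rose by 0.25 in Treg (SE 0.07, limma adjusted p = 0.0200), and lost the call without vehicle replicate 1 or venetoclax replicate 1, 3 or 4 (0.0534 to 0.0598). In Tcon it went from 594 ± 49.2 to 713 ± 25.1 (SD, n = 4), also without overlap, a change of 0.27 (limma adjusted p = 0.0735, and 0.0340 with the block, a call lost in every fit that left out 1 replicate number).

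**Figure D3:**
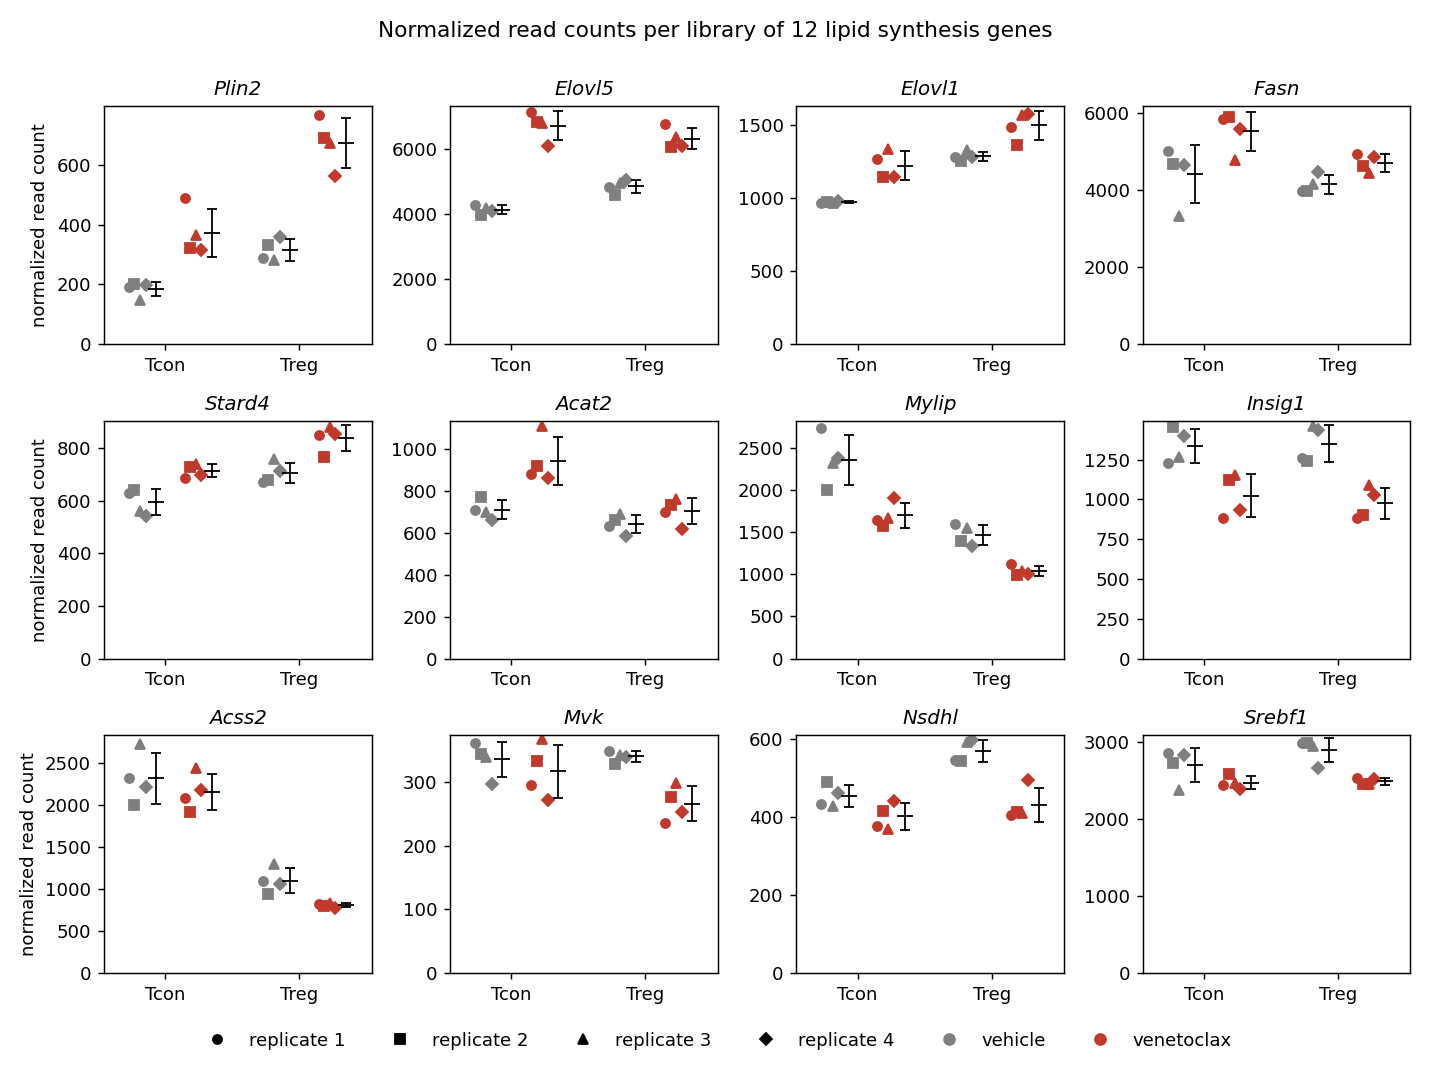
Normalized read counts per library of 12 genes in Tcon and Treg, from 0, with vehicle in grey, venetoclax in red, symbols for replicate numbers and bars for mean ± SD (n = 4). Plin2 and Elovl5 have all venetoclax libraries above, and Mylip and Insig1 all below, the vehicle libraries of both subsets, while Mvk, Nsdhl and Srebf1 separate in Treg and overlap in Tcon.

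Of the 2 genes that build palmitate, Fasn rose in Treg, and both rose in Tcon with the replicate block alone. The shares of all genes that rose in these fits were 10.7% and 8.92%. Fasn, the fatty acid synthase, read 3978, 3985, 4159 and 4485 in vehicle and 4957, 4623, 4443 and 4869 in venetoclax Treg. Venetoclax replicate 3 lay below vehicle replicate 4, and the other libraries were apart. Fasn rose by 0.19 in Treg (SE 0.05, limma adjusted p = 0.0272), a call lost without vehicle replicate 1, 2 or 3 or venetoclax replicate 1 or 4 (0.0551 to 0.0839). In Tcon it read 5031, 4682, 3319 and 4653 in vehicle and 5863, 5905, 4800.4 and 5588 in venetoclax. Replicate 3 was the lowest of each group, and the venetoclax library was the higher within every replicate number. Its Tcon change was 0.34 (SE 0.13, limma adjusted p = 0.141, and 0.00344 with the block). Acaca, the carboxylase that makes malonyl-CoA, was at 1247 ± 270.1 (SD, n = 4) and 1526 ± 137 in Tcon, a change of 0.31 (limma adjusted p = 0.225, and 0.0324 with the block, a call lost without replicate 2, 3 or 4 of both treatments). In Treg Acaca stood at 1319 ± 93.4 and 1318 ± 36.6, a change of 0.00 (limma adjusted p = 0.992).

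Of the 4 elongase and desaturase genes, Elovl1 and Elovl5 rose in both subsets, where 3.92% of all genes rose in Tcon and 10.7% in Treg. Elovl5, which lengthens polyunsaturated fatty acids, read 4271, 3950.3, 4179.5 and 4073 in vehicle and 7113, 6822, 6796 and 6084 in venetoclax Tcon. In Treg it read 4827, 4579, 4954 and 5032 in vehicle and 6749, 6045, 6350.0 and 6094 in venetoclax. The treatments were far apart in both subsets. Elovl5 rose 1.63-fold in Tcon (log2 0.70, SE 0.07, limma adjusted p = 5.80e-04) and 1.30-fold in Treg (log2 0.38, SE 0.05, limma adjusted p = 3.99e-04). It passed under every alternative run in both subsets. Elovl1, which lengthens saturated and monounsaturated chains, read 968, 973, 969.9 and 981 in vehicle and 1269, 1143, 1339.7 and 1143 in venetoclax Tcon. In Treg it read 1286, 1255, 1331 and 1282 in vehicle and 1488, 1367, 1572 and 1577 in venetoclax. The vehicle libraries lay close together and all venetoclax libraries were above them.

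Elovl1 rose by 0.33 in Tcon (SE 0.07, limma adjusted p = 0.0209) and by 0.22 in Treg (SE 0.06, limma adjusted p = 0.0173). The Tcon call was lost without vehicle replicate 1 or 2 or venetoclax replicate 1 or 3 (0.0540 to 0.0883) and with Y-linked level as covariate (0.0994), and the Treg call without venetoclax replicate 3 or 4 (0.0519 and 0.0558). Elovl1 shares 2.73% of its exon bases with the cell cycle gene Cdc20 on the opposite strand, which rose by 0.60 in Tcon, from 90.5 ± 8.15 to 139 ± 24.2 (SD, n = 4, limma adjusted p = 0.0380), and stood at 151 ± 25.4 and 152 ± 28.8 in Treg. Elovl6, which lengthens palmitate, changed by 0.22 in Tcon and 0.21 in Treg and did not pass without a block (limma adjusted p = 0.299 and 0.0730). With the replicate block its limma adjusted p was 0.0543 in Tcon and 0.0443 in Treg. Fads1, a desaturase of polyunsaturated fatty acids, changed by 0.17 and 0.10 (limma adjusted p = 0.287 and 0.464).

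The difference between the subsets was tested as the change in Treg minus the change in Tcon over all 16 libraries. By limma without a block none of the 37 genes passed, where 1.3% of all genes did. An unadjusted p under 0.05 was found for 10 of the 37 and for 1089 of all 10774 genes. DESeq2 called 2 of the 37 (Hmgcs1 and Elovl5) and edgeR none. The median difference of the 37 genes was -0.13, against 0.00 over all genes. Negative differences numbered 31 of the 37 and 5239 of all 10774 genes. Tcon and Treg libraries of the same code deviated together, and with the code as a block 7 genes passed, all with the lower change in Treg, where 3.61% of all genes passed (1.27% higher, 2.34% lower).

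Of these 7 genes 5 are enzymes from mevalonate to sterol. Within a code, the log2 level of Hmgcs1 in Treg minus that in Tcon was -0.14, -0.28, 0.03 and -0.05 in vehicle and -0.48, -0.67, -0.56 and -0.56 in venetoclax. For Idi1 it was 0.24, 0.08, -0.02 and 0.20 in vehicle and -0.31, -0.49, -0.49 and -0.31 in venetoclax. Every venetoclax code lay below every vehicle code for both genes. The difference in change was -0.46 for Hmgcs1 (adjusted p = 0.109 by limma, and 0.00754 with the block) and -0.52 for Idi1 (0.294 and 0.00495). These 2 kept the blocked call whichever code was left out. Fdps, Sqle and Cyp51 had differences of -0.45, -0.51 and -0.39 (limma adjusted p with the block 0.0300, 0.0307 and 0.0318), and each lost the call in 5 or more of the 8 fits that left out 1 code.

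Elovl5 differed by -0.32, with a rise in both subsets that was smaller in Treg (limma adjusted p = 0.0607, and 0.0144 with the block). Its within-code difference was 0.18, 0.21, 0.25 and 0.31 in vehicle and -0.08, -0.17, -0.10 and 0.00 in venetoclax. Every vehicle code lay above every venetoclax code. The tables were normalized separately, so 0 on this scale need not mark equal levels in the subsets. Acss2 differed by -0.33 (limma adjusted p = 0.406, and 0.0288 with the block). Its within-code difference was -1.08, -1.09, -1.07 and -1.06 in vehicle and -1.33, -1.26, -1.54 and -1.49 in venetoclax, so the vehicle codes lay within a narrow band. Elovl5 lost the blocked call without vehicle code 4 or venetoclax code 1 or 2 (0.0558 to 0.0599), and Acss2 without vehicle code 1, 2 or 4 or venetoclax code 1, 3 or 4 (0.0703 to 0.0838). For the genes that fell in both subsets the difference was small: -0.08 for Insig1 and -0.03 for Mylip (limma adjusted p with the block 0.799 and 0.929), with standard errors of 0.11 and 0.09.

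**Figure D4:**
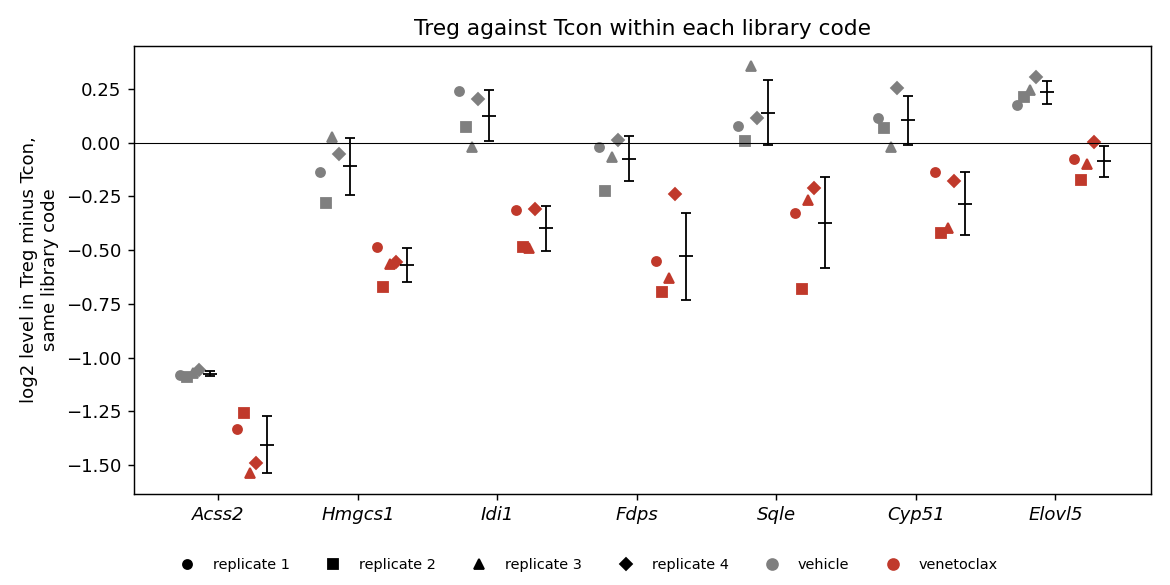
Log2 level in Treg minus that in Tcon of the same library code for the 7 genes that passed the blocked test of the subset difference, with vehicle codes in grey, venetoclax codes in red, symbols for replicate numbers and bars for mean ± SD (n = 4). For each gene, picked by a test of these same values, all venetoclax codes lie below all vehicle codes. Acat2, Mvk, Fdft1 and Ebp, not shown, separate in the same way and did not pass. The vehicle codes of Acss2 lie between -1.09 and -1.06, while those of the others lie between -0.28 and 0.36.

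Genes of the same pathways outside the list of 37 were counted in the same way. Of 26 genes of sterol regulation and transport measured in Tcon, 2 rose and none fell (6 had an unadjusted p under 0.05, median change 0.02), and with the replicate block 3 rose and 1 fell. Of 25 in Treg 4 rose and 2 fell (median 0.04). The shares of all genes that passed, 6.91% in Tcon, 16.8% there with the block and 19.6% in Treg, apply to this and the following lists, and the shares of this list were near them. Over all genes an unadjusted p under 0.05 was found for 2528 of 11171 in Tcon and 3687 of 11067 in Treg. Soat1, which makes cholesterol esters for lipid droplets, rose in both subsets, from 981 ± 58.4 to 1348 ± 81.1 in Tcon (log2 0.46, limma adjusted p = 0.00494) and from 1353 ± 72.6 to 1794 ± 147 in Treg (log2 0.40, limma adjusted p = 0.00118). Npc2, which carries cholesterol out of the lysosome, fell in Treg by 0.28 (limma adjusted p = 0.00625). Erlin1, an endoplasmic reticulum protein that binds cholesterol, rose in Treg by 0.45 (limma adjusted p = 0.0111). Lpcat3, a phospholipid acyltransferase gene that LXR turns on, rose in Tcon by 0.28 (limma adjusted p = 0.0424).

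Of 24 genes of fatty acid and glycerolipid synthesis 3 rose and 1 fell in Tcon (12 had an unadjusted p under 0.05, median change -0.02), and with the replicate block 8 rose and 2 fell. In Treg 5 rose and none fell (10 had an unadjusted p under 0.05, median 0.05), a share near that of all genes. Agpat3, an acyltransferase of phospholipid synthesis, and Acsl5, which activates fatty acids, rose in both (log2 0.30 and 0.26 in Tcon, 0.17 and 0.18 in Treg, limma adjusted p between 0.0188 and 0.0275). Dgat2, which makes triglyceride, rose in Treg from 161 ± 27.8 to 248 ± 49.1 (log2 0.61, limma adjusted p = 0.0147), and Hacd3, a dehydratase of chain elongation, by 0.41 (limma adjusted p = 3.05e-04). Mcat, the mitochondrial malonyl transferase, fell in Tcon by 0.52 (limma adjusted p = 0.00721).

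Of 14 genes of the isoprenoid branch and prenyl transfer 1 rose in each subset and none fell (3 in each had an unadjusted p under 0.05, medians 0.01 in Tcon and 0.03 in Treg). It was Dhdds, a prenyl transferase of dolichol synthesis (log2 0.38 in Tcon and 0.19 in Treg, limma adjusted p = 0.0164 and 0.0350). In the blocked Tcon fit 2 of the 14 rose. Of 20 genes of fatty acid oxidation 2 rose in Tcon (median 0.02, and 2 rose and 1 fell with the block), and 1 rose and 2 fell in Treg (median -0.05). In Treg the shares of both lists were below that of all genes. Cpt1a, the gate of mitochondrial fatty acid import, rose in both (log2 0.61 and 0.52, limma adjusted p = 0.0472 and 0.00633), from 1732 ± 236 to 2682 ± 636 in Tcon and from 1832 ± 109 to 2657 ± 539 in Treg. Echs1 and Eci2, enzymes of the oxidation cycle, fell in Treg by 0.29 and 0.28 (limma adjusted p = 0.00430 and 0.0146).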

How the data were processed

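RNA of 16 libraries (4 per group) was prepared with Rneasy mini plus and sequenced on a NovaSeq, per the labels' protocols. The submitters' processing notes name HISAT2, SAMtools and the mm10 genome, without versions, and the sources used here give neither the read counter nor its strand setting. The signal columns, 1 per library, are normalized counts made by the authors by dividing reads by 1 size factor per library. The authors' tables also hold a log2 fold change with its error and a p-value with its adjusted form per gene, as deposited, from a test that no source used here names. All values (100%, tolerance 0.01 read) were whole multiples of 1 read, so the reads behind them were recovered for RPM, RPKM and the count tests. Repeated lines were dropped (40 in Tcon, 43 in Treg), and 18 Treg symbols turned into dates were restored.

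The design foresaw edgeR's test for raw counts. Since the values are normalized, limma 3.58.1 in R 4.3.3 (trend prior, two-sided) was fitted on log2(value + 1), with no filter beyond the authors', in each table alone, and over 10774 shared genes for the difference between subsets. The p-values were adjusted over every gene fitted, with a threshold of 0.05. Alternatives numbered 20 per subset and 17 for the difference and included edgeR 4.0.16 and DESeq2 1.42.0 on recovered reads. Fits were tested on simulated data.

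Same-numbered vehicle and venetoclax libraries of Tcon had correlated deviations from their group means (r 0.119 to 0.614 across 9441 genes). Unlike-numbered pairs ran from -0.472 to 0.292, so some exceeded the 0.119 of the replicate 1 pair. The number was used as a block there. No label pairs these libraries, so that block was chosen from the same data that it was used to test. In Treg r ran from -0.04 to 0.41 for same-numbered pairs and from -0.59 to 0.36 for unlike-numbered pairs. The number was not taken as a pairing there. In both subsets the replicate 1 pair had the lowest r of the same-numbered pairs, and the others were positive. Tcon and Treg libraries of the same code had r of 0.461 to 0.766, and the code was the block for the difference. The labels call the replicates biological without naming animals, so p-values measure the spread between these samples.

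The members and lists were chosen with earlier results of these data known. Values per library are given for each member that passed in a comparison and for a few first enzymes of each role, and up to 4 genes of each list outside the members. Some pathway genes are not reported here.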

Additional observations from a re-analysis of the deposited data

Results flagged for a closer look

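In 9 of 148 groups of 4 libraries (each of the 37 genes in each of the 4 groups), 1 library stood apart from the other 3 by a gap over Dixon's 95% limit, a share of the group's range, which chance exceeds in about 1 in 20 groups. Plin2 was low in vehicle Tcon replicate 3, at 148 normalized counts against 193 to 201. In vehicle Treg, Lss was high in replicate 3 (428 against 370 to 376), Srebf1 was low in replicate 4 (2663 against 2951 to 2989) and Nr1h2 was low in replicate 1 (2021 against 2235 to 2247). In venetoclax Treg, replicate 4 was high for Nsdhl (494 against 404 to 413) and Dhcr7 (1081 against 1023 to 1028) and low for Srebf2 (6043 against 6373 to 6440.4). Lss was high in venetoclax Treg replicate 2 (432 against 377 to 385), and Acly was low in replicate 3 (7591 against 7641 to 7650.5).

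With the library code as a block, the change in Treg was lower than that in Tcon for 7 genes by the limma interaction test. The differences were -0.52 for Idi1, -0.51 for Sqle, -0.46 for Hmgcs1, -0.45 for Fdps, -0.39 for Cyp51, -0.33 for Acss2 and -0.32 for Elovl5. In each of the 7 genes the 4 venetoclax codes lay below the 4 vehicle codes. The 7 were picked by a test of these same values, so the separation adds no support. It also held for Acat2, Mvk, Fdft1 and Ebp, which did not pass, and its share over all genes is not given here. None of the 7 passed the same test without the block.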

How the results depend on the processing

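Alternatives were run for the members that passed a test (6 in Tcon, 13 in Treg, and those that passed a blocked fit, 15 in Tcon and 7 for the difference), and none of these changed direction in them. Over the genes that passed, 94 of 120 results in Tcon and 220 of 260 in Treg kept their side of the threshold, and the others lost the call. In Tcon 772 genes and 6 members passed. These counts were 1371 and 11 with DESeq2, 1880 and 15 with the replicate block, 342 and 3 with the Y-linked covariate, 1443 and 10 without replicate 3 of both treatments, and 116 and 1 without venetoclax replicates 1 and 3. Leaving out 1 library gave 306 (without venetoclax replicate 1) to 1244 genes (without vehicle replicate 3) and 2 to 8 members. The median member change in Tcon of 0.20 was 0.12 with the Y-linked covariate. In Treg 2164 genes and 13 members passed, with 1028 and 7 without replicate 3, 614 and 5 without venetoclax replicates 1 and 3, and 1327 to 2198 genes and 8 to 14 members when 1 library was left out. With the replicate block in Treg, where the number was not taken as a pairing, 2467 genes (22.3%) and 18 members passed. For the subset difference 140 genes and 0 members passed, against 295 and 2 with DESeq2, 389 and 7 with the replicate block and 4 genes without venetoclax replicates 1 and 3, and 43 to 149 genes and 0 to 1 members when 1 code was left out. The blocked fits were repeated without each replicate number or code, alternatives chosen after seeing the data. They gave 889 to 2093 genes and 9 to 14 members in Tcon, and 142 to 696 genes and 2 to 8 members for the difference. The cause of these shifts was not tested. Power differed between the comparisons in simulated counts. Their spread came from the vehicle libraries of each subset alone, and no code was shared between libraries. Only genes with a mean of at least 50 reads were changed. There limma recovered 48% of genes changed by 0.5 on the log2 scale in Tcon (11171 genes) and 89% in Treg (11067 genes). For the difference it recovered 32.3% (10774 genes). The power of the fits to the real libraries was not tested.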
